A study of Mus musculus with 2 samples.

Results

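The 9 genes described here encode ion channels and pumps that set the membrane voltage and the calcium level of aldosterone-producing cells. They are the potassium channels Kcnk3, Kcnk9, Kcnk1, Kcnk2 and Kcnj5, the calcium channels Cacna1h and Cacna1d, the calcium pump Atp2b3 and the chloride channel Clcn2. They were taken by name from the gene tables and followed into their transcripts, and all 9 were found among 55536 annotated genes. Total RNA from the adrenal gland of 2 adult female mice was sequenced. Both animals were 8 to 10 months old and of the strain B6CASTF1/J, an F1 hybrid of C57BL/6J with the wild-derived CAST line, and the labels name no treatment and no second group. Replicate 1 is animal 1 and replicate 2 is animal 3. The labels give them separate biosamples but 1 donor code. They are called 2 animals below, which the donor code leaves unsettled, so a spread between them is one between 2 samples.

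Cells of the zona glomerulosa, the outer layer of the adrenal cortex, make aldosterone, the hormone of salt retention and potassium excretion. At rest a background potassium current through two-pore channels holds their membrane at a very negative voltage. Angiotensin II or a raised plasma potassium depolarises them, voltage-gated calcium channels open, and the calcium signal induces the aldosterone synthase gene Cyp11b2. Mutations in the human counterparts of Kcnj5, Cacna1d, Cacna1h, Atp2b3 and Clcn2 are known causes of excess aldosterone production.

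The gene tables summed to 40453707 expected counts in replicate 1 and 34319787 in replicate 2. An expected count is an estimated number of reads, and TPM is that number divided by transcript length and scaled to the same total in each library. None of the glomerulosa, fasciculata or chromaffin markers was at 0. The same held for every other marker list, so presence alone does not identify the tissue. By level, the 5 fasciculata markers summed to 4877 TPM in replicate 1 and 5806 TPM in replicate 2. The 11 chromaffin markers summed to 2568 and 2326 TPM. The 7 glomerulosa markers summed to 474 TPM in replicate 1 and 510 TPM in replicate 2, with a median log2 ratio of 0.00. Fat markers differed more: the 6 brown adipocyte markers summed to 451 TPM in replicate 1 and 152 TPM in replicate 2, and the 7 adipocyte markers to 1376 and 771. The 8 smooth muscle markers summed to 88.8 and 64.0 TPM, and the 6 capsule and fibroblast markers to 157 and 108. The gland was sequenced whole, so fewer cells of a type and less RNA per cell cannot be told apart, and no level below belongs to 1 zone. With 1 group of 2 samples no test was possible, and all comparisons are descriptions. A gene was called different between the animals when its log2 ratio, replicate 2 over replicate 1, was at least 1 in either direction, its mean count was 100 or more and its deposited TPM intervals were apart.

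The levels of the 9 genes spanned from Kcnk3 at 571 ± 30.9 TPM (SD, n = 2) to Kcnj5 at 0.505 ± 0.0636 TPM. Between them, in falling order, came Cacna1h, Atp2b3, Clcn2, Kcnk9, Kcnk2, Cacna1d and Kcnk1. This is the order in the gene table, where only 1 pair of neighbours had ranges that overlapped over the 2 animals, Clcn2 and Kcnk9. That pair overlapped in the index-based table too, where Kcnj5 (1.37 and 1.66 TPM) lay above Kcnk1 (0.746 and 0.959 TPM) in both animals. Kcnk3 stood 12.5 times above the next gene, Cacna1h, by mean TPM. In both animals 7 of the 9 genes reached 1 TPM, the exceptions being Kcnk1 and Kcnj5, against 54.5% of 22015 nuclear protein-coding genes. All 9 genes had whole-number expected counts in both libraries, so no read assigned to them was divided with another gene in that table. Of genes with a mean count of 100 or more, 10379 of 12645 had whole-number counts as well.

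**Figure D1:**
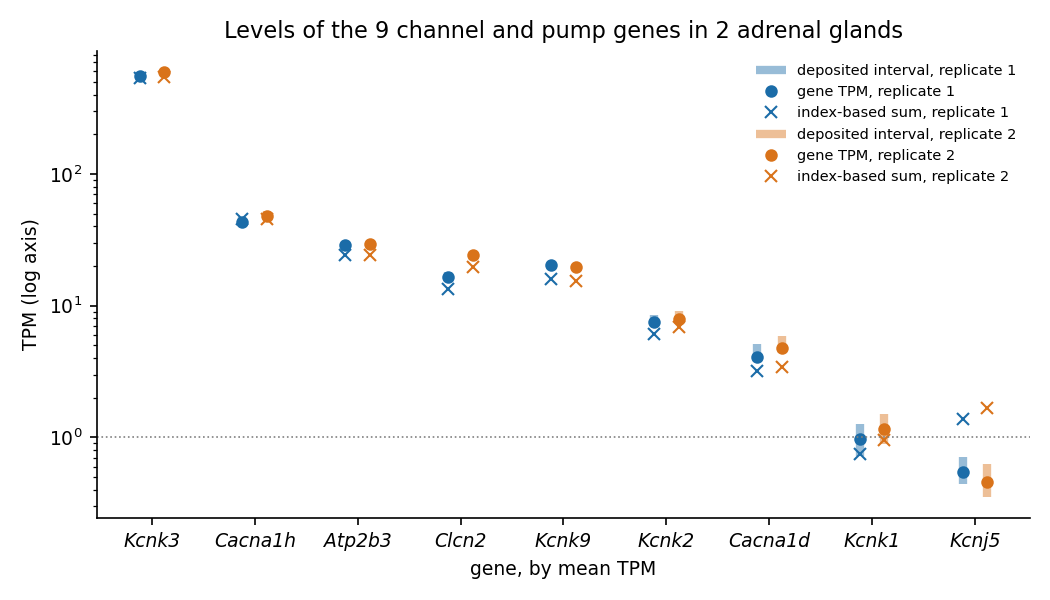
Level of each gene in TPM (log axis) in replicate 1 (blue) and replicate 2 (orange). Circles are the gene table, shaded bars its deposited interval, crosses the gene sums of the index-based transcript table, and the dotted line 1 TPM; Kcnk3 lies far above the others, and Kcnj5 is the gene whose crosses lie farthest above its circles.

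Kcnk3 encodes TASK-1, an acid-sensitive two-pore channel and a main carrier of the background potassium current of glomerulosa cells. The gene lies on chromosome 5 from 30588170 to 30625271, plus strand (mm10). Its level was 549 TPM in replicate 1 and 593 TPM in replicate 2, from 75621 and 69439 expected counts. Both animals were high, and Kcnk3 ranked 34 among the 22015 nuclear protein-coding genes by mean TPM. The deposited TPM intervals, 534 to 546 and 574 to 588, did not overlap, yet each deposited TPM lay above its own interval, which bracketed the posterior mean TPM of 540 and 581. Scaled by TMM, which removes the difference in depth and composition between libraries, the counts of the 2 animals differed by a log2 ratio of 0.03.

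Kcnk9 encodes TASK-3, the close relative of TASK-1 with which it can form mixed channels. It lies on chromosome 15 from 72501089 to 72546340, minus strand, and has a single annotated transcript of 12300 bases. Kcnk9 measured 20.5 TPM in replicate 1 and 19.8 TPM in replicate 2, with 9723 and 7963 expected counts. The animals were close (log2 ratio -0.13, intervals overlapping). Per length, Kcnk3 stood 28.4 ± 2.27 times (SD, n = 2) above Kcnk9. In the index-based table these ratios were 33.8 and 35.7, so the order of the pair was the same in both tables and both animals.

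Reads of Kcnk3 and Kcnk9 could be told apart by sequence. Their coding sequences were identical in 64.0% of the columns of a global alignment, gaps included, the highest value among the 6 pairs of the 4 two-pore members. The longest run of bases that Kcnk3-201 and Kcnk9-201 shared exactly was 20 bases, in the first coding exon of each. It is shown in capitals with 30 bases on either side, from GENCODE M21 transcripts on mm10, at chr5:30588329-30588408 on the plus strand and chr15:72546188-72546267 on the minus strand.
Kcnk3: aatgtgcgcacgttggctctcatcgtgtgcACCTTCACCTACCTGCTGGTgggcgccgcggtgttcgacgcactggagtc
Kcnk9: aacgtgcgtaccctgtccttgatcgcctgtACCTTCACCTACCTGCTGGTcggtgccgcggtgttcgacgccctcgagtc
Stretches of 31 bases found in a transcript of another gene on the same strand made up 0.889% of those of Kcnk3 and 0.220% of those of Kcnk9. On the opposite strand the share was 5.67% for Kcnk3, which overlaps Gm9899 over 450 bases. Gm9899 was at 4.98 and 5.67 TPM, far below Kcnk3. How the counting treated strand is not stated.

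Kcnk2 encodes TREK-1, a two-pore channel opened by stretch, heat and lipids and closed by hormone signalling. The gene spans chromosome 1 from 189207930 to 189402273 on the minus strand. Its levels were 7.57 TPM in replicate 1 and 7.87 TPM in replicate 2, from 766 and 638 expected counts (log2 ratio -0.11). Its sign depended on the scale, since TPM as deposited gave 0.06. The deposited intervals, which describe estimation within 1 library, overlapped.

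The leading Kcnk2 transcript, in each animal and each table, was one annotated as a target of nonsense-mediated decay, a class whose stop codon is placed such that the RNA is expected to be degraded. This transcript, Kcnk2-203, held 59.1% of the gene's TPM in replicate 1 and 43.2% in replicate 2. In the index-based table the shares were 43.3% and 34.9%. The 6 protein-coding transcripts together held 40.9% and 55.5%, so by TPM the 2 classes changed places between the animals in the alignment-based table. In the index-based table the coding class was the larger by TPM in both (56.7% and 59.9%). By counts, Kcnk2-203 was the larger class in both animals in the alignment-based table, with 68.8% and 53.4%. In the index-based table it held 50.7% and 47.6% of the counts, against 49.3% and 52.0% for the coding class. Kcnk2-203 lacks an exon that all 6 protein-coding transcripts contain. The exon has 118 bases, a length that is not a multiple of 3, and lies at chr1:189295594-189295711 on the minus strand (mm10). It is printed because it separates the leading transcript from the coding ones.
Kcnk2 exon: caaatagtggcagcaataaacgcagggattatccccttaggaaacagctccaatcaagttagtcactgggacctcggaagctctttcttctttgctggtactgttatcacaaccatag

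Kcnk1 encodes TWIK-1, the founding member of the two-pore family, which carries little current by itself. It lies on chromosome 8 from 125995170 to 126030685, plus strand. Kcnk1 had 0.970 TPM in replicate 1 and 1.15 TPM in replicate 2, which rest on 67 and 75 expected counts. The intervals, 0.716 to 1.26 and 0.897 to 1.502, overlapped, and 1 TPM lay inside both. Its antisense neighbour Gm45875 was at 0 counts in both libraries.

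Kcnk3 held 94.2% ± 0.341 (SD, n = 2) of the TPM of the 14 two-pore channel genes. Of these 14, 4 reached 1 TPM in both animals: Kcnk3, Kcnk9, Kcnk2 and Kcnk5. Of the 14, 4 had the mean count of 100 that a call needs. Kcnk5, which encodes the alkaline-activated channel TASK-2, was the only one of these called different. It had 2.64 TPM in replicate 1 against 8.62 TPM in replicate 2 (log2 ratio 1.63). Over all genes with such a count, 1.18% of 12645 were called. Below Kcnk1, Kcnk6 and Kcnk13 had mean levels of 0.460 and 0.355 TPM. Kcnk7, Kcnk15, Kcnk16 and Kcnk18 had no read in either library, where 3 counts, the upper limit that a count of 0 allows, would be 0.0742 and 0.0874 CPM.

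**Figure D2:**
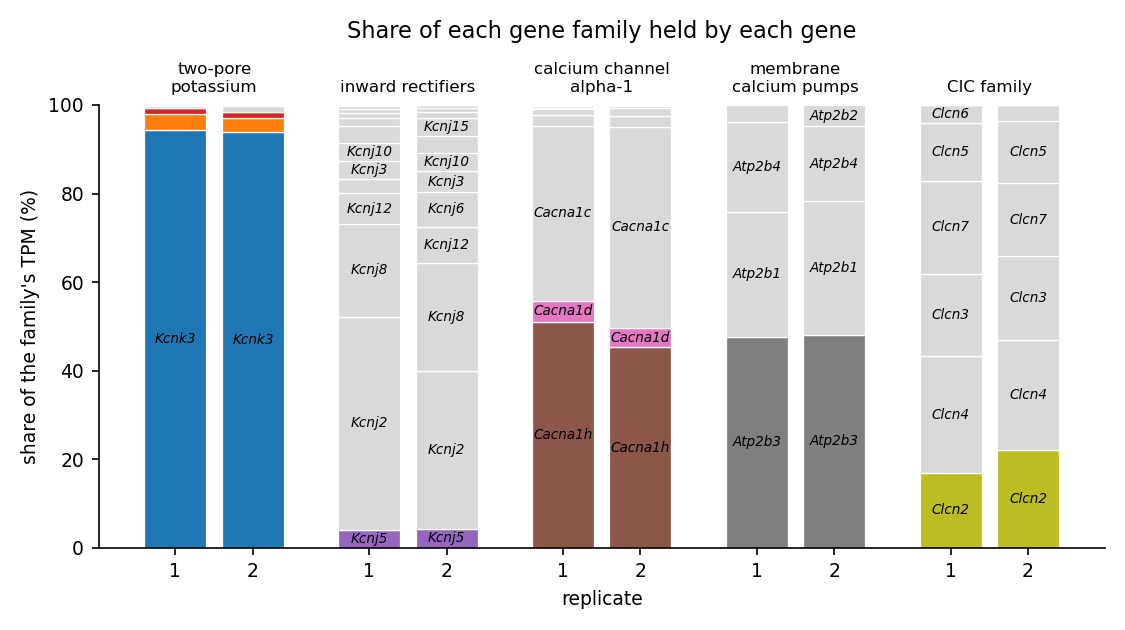
Share of the TPM of 5 gene families held by each gene (vertical axis, percent) in each replicate (horizontal axis). Members are coloured and other genes grey; in the two-pore bars the orange segment is Kcnk9 and the red one Kcnk2. Kcnk3 fills 94.4% and 93.9% of its family, while Kcnj5 holds 4.02% and 4.34%.

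Kcnj5 encodes GIRK4, an inward rectifier gated by G proteins whose mutation in human aldosterone-producing adenomas makes the channel leak sodium. It lies on chromosome 9 from 32314707 to 32344350, minus strand, and overlaps no other gene. Its level was 0.550 TPM in replicate 1 and 0.460 TPM in replicate 2, from 87 and 61 expected counts. Both animals were low, the intervals (0.439 to 0.713 and 0.355 to 0.624) overlapped, and the log2 ratio was -0.35. Among the 15 inward rectifiers it held 4.18% ± 0.221 of the TPM. Kcnj2 (6.58 and 3.77 TPM) and Kcnj8 (2.87 and 2.60 TPM) were the 2 members of that list at 1 TPM or more in both animals. Kcnj12 followed at 0.900 ± 0.0566 TPM. Only 2 of the 15 inward rectifiers had the mean count of 100 that a call needs, and neither was called 2-fold apart.

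For Kcnj5 the tables differed most. The index-based table gave 1.37 TPM in replicate 1 and 1.66 TPM in replicate 2, which is 2.48 and 3.61 times the alignment-based level. Over the 11996 protein-coding genes at 1 TPM or more the median of this ratio was 0.869 and 0.868, and the central 95% of genes lay between 0.632 and 1.36 in replicate 1 and between 0.641 and 1.35 in replicate 2. The extra signal was in estimated counts, 213 and 192 against 87 and 61. It lay on 2 of the 3 coding transcripts, Kcnj5-202 and Kcnj5-203. Kcnj5-203, at 0 counts in both animals in the alignment-based table, had 59.5 and 124 estimated counts in the index-based one. Kcnj5-201 had 67.4 and 45.8 counts in the alignment-based table and 67.2 and 41.9 in the index-based one, nearly the same. Kcnj5-202 had 19.6 and 15.2 against 86.3 and 26.3. Stretches of 31 bases shared with transcripts of other genes made up 0.318% of Kcnj5, on either strand. Which table is nearer to the true level was not tested.

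Cacna1h encodes Cav3.2, a T-type calcium channel that opens at small depolarisations. Located on chromosome 17 from 25374285 to 25433783 (minus strand), it measured 43.4 TPM in replicate 1 and 48.2 TPM in replicate 2, with 9871 and 9651 expected counts. The log2 ratio was 0.12 and the intervals overlapped. Its summed level in the index-based table, 45.3 and 45.1 TPM, was close to the alignment-based one. The protein-coding transcripts alone were at 24.4 and 28.1 TPM there, against 32.4 and 35.2 TPM in the alignment-based table. Cacna1h overlaps only the weakly expressed Tpsg1, over 158 bases.

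The division of Cacna1h between its main coding transcripts could not be read from these data. The alignment-based table placed 9454 and 9105 counts on Cacna1h-205 and 0 on Cacna1h-201. The index-based table split them as 3402 and 5460 on Cacna1h-205 against 6782 and 4320 on Cacna1h-201. The annotated RNAs of these transcripts are identical over all 8220 bases of Cacna1h-201, and Cacna1h-205 has 10 further bases at its 3′ end. Their coding sequences, of 7077 bases each, differ at 0 positions. Summed, the pair held 68.9% and 70.2% of the gene's TPM in the alignment-based table and 53.1% and 60.1% in the index-based one. By counts the protein-coding class of Cacna1h held 96.5% and 96.8% of the gene in the alignment-based table, since the remaining transcripts are short.

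Cacna1d encodes Cav1.3, an L-type channel that opens at more negative voltages than its cardiac relative Cav1.2. It lies on chromosome 14 from 30039939 to 30491455, minus strand. Its level was 4.09 TPM in replicate 1 and 4.74 TPM in replicate 2, from 949 and 975 expected counts, with overlapping intervals and a log2 ratio of 0.19. Cacna1h stood 10.6 and 10.2 times above Cacna1d per length. Within the gene, protein-coding transcripts held 55.5% and 56.5% of the TPM and retained-intron transcripts 30.8% and 33.3%. The retained-intron share was lower in the index-based table, 18.6% and 19.4%, and the coding share was 58.2% and 62.4%. The leading transcript, the coding Cacna1d-202, held 23.6% ± 1.55 in the alignment-based table and 34.04% ± 5.69 in the index-based one. Cacna1d overlaps Dcp1a on the opposite strand over 11921 bases. Dcp1a was at 8.41 and 12.1 TPM, above Cacna1d, and its part in the Cacna1d value was not tested.

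Among the 10 alpha-1 subunits of voltage-gated calcium channels, Cacna1h held 48.1% ± 4.09 of the TPM and Cacna1d 4.63% ± 0.257. Cacna1c, which encodes Cav1.2, was the other main gene, with 33.5 TPM in replicate 1 and 48.4 TPM in replicate 2. Cacna1h was 1.30 times Cacna1c in replicate 1 and 0.997 times in replicate 2, so the order of the 2 differed between the animals in the gene table. Cacna1h was the higher in both animals in the index-based table, at 1.45 and 1.05 times Cacna1c, as sums over all transcripts of each gene. Cacna1a (2.38 ± 0.311 TPM) and Cacna1b (1.47 ± 0.552 TPM), which encode neuronal channels, were the remaining genes at 1 TPM or more in both. Of the 10, 6 had the mean count of 100 that a call needs, and none of these was called 2-fold apart. The other T-type genes were low, Cacna1i at 0.405 TPM and Cacna1g at 0.220 TPM. Of 8 auxiliary subunits 6 reached 1 TPM in both animals, led by Cacna2d1 (46.8 ± 0.354 TPM), Cacnb2 (17.2 and 21.3 TPM) and Cacnb3 (4.60 and 3.69 TPM). None of the 6 auxiliary subunits with a mean count of 100 or more was called.

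Atp2b3 encodes PMCA3, a plasma membrane pump that expels calcium. It lies on chromosome X from 73503086 to 73571005, plus strand. The level was 28.9 TPM in replicate 1 and 29.5 TPM in replicate 2, from 5031 and 4346 expected counts. This was the smallest SD relative to the mean of the 9 genes, and the log2 ratio was -0.06. Atp2b3 held 47.9% ± 0.271 of the TPM of the 4 PMCA genes and was the highest of them in both animals, 1.701 and 1.591 times the widely expressed Atp2b1 (17.0 and 18.5 TPM). Atp2b4 was at 11.3 ± 1.39 TPM and Atp2b2 at 2.67 ± 0.396 TPM. All 4 reached 1 TPM in both animals and none was called.

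Atp2b3-203 held 89.9% and 89.0% of the gene's TPM, and 83.2% and 78.7% in the index-based table. Calcium pumps of this family are known for alternative splicing near the carboxyl terminus, which alters their regulation by calmodulin. Atp2b3-203 contains a coding exon of 154 bases that neither other annotated transcript includes, at chrX:73559864-73560017 on the plus strand (mm10). Atp2b3-202, which lacks it, held 1.38% and 0.746% of the TPM, and 2.61% and 6.28% in the index-based table. Atp2b3-201 held 8.74% and 10.2%. The exon is printed whole because it marks the transcript that dominated in both animals.
Atp2b3 exon: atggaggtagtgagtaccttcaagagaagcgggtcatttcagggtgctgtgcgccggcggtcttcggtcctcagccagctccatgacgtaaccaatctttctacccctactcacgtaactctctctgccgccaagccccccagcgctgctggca
The SERCA pumps, which load calcium into the endoplasmic reticulum, were led by Atp2a2 at 65.2 ± 1.30 TPM. Atp2a3 was at 3.61 ± 0.0707 TPM, and Atp2a1 was at 1 count in each library. Of the 3, 2 had a mean count of 100 or more, and neither was called.

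Clcn2 encodes ClC-2, a chloride channel whose opening depolarises glomerulosa cells. It lies on chromosome 16 from 20702964 to 20717746, minus strand. It measured 16.4 TPM in replicate 1 and 24.1 TPM in replicate 2, from 1748 and 2097 expected counts. Clcn2 had the largest difference between the animals among the 7 members that averaged at least 100 expected counts, a log2 ratio of 0.42, and its intervals (15.5 to 17.9 and 22.3 to 25.9) did not overlap. Kcnk3 and Clcn2 were thus the 2 of 7 members whose deposited intervals were apart, against 27.4% of the 12645 genes with a mean count of 100 or more.

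The difference in Clcn2 lay mainly in counts assigned to transcripts annotated as retaining introns. The coding transcript Clcn2-201 had 1522 expected counts in replicate 1 and 1547 in replicate 2 (log2 ratio 0.18 after scaling). The 6 retained-intron transcripts summed to 200 and 491 counts, a log2 ratio of 1.45. In the index-based table the sums were 254 and 559, a log2 ratio of 1.27. By TPM, coding transcripts held 78.9% of Clcn2 in replicate 1 and 64.2% in replicate 2, and retained-intron transcripts 20.1% and 33.9%. Every one of the 6 had the higher count in replicate 2, in both tables. Retained-intron transcripts were higher in replicate 2 over all genes too, with a median log2 ratio of 0.44 over 5091 genes against -0.05 for the coding transcripts of the same genes. Of those genes 16.7% had a retained-intron sum at least 2-fold higher in replicate 2, and 14.8% of 5294 in the index-based table. Clcn2 was 1 of 3 members tested, and the other 2 had no such difference: Cacna1h had 346 and 272 retained-intron counts, and Cacna1d 171 and 133.

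**Figure D3:**
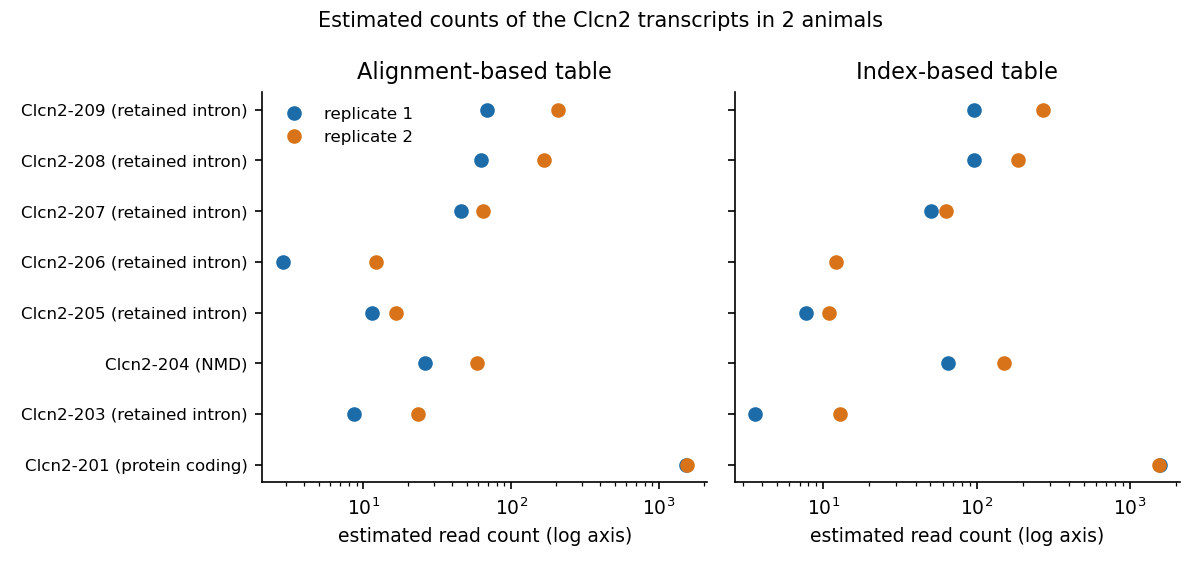
Estimated counts (log axis) of each Clcn2 transcript with a count in the alignment-based table, in replicate 1 (blue) and replicate 2 (orange), for both transcript tables. The coding Clcn2-201 overlaps between the animals (1522 and 1547 in the alignment-based table), while the retained-intron transcripts and Clcn2-204 (nonsense-mediated decay, NMD) lie higher in replicate 2; among the transcripts shown, only Clcn2-206 in replicate 1 of the index-based table has a count of 0 and no point. Clcn2-210, at 4.70 estimated counts in replicate 2 of the index-based table and 0 elsewhere, is not shown.

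Clcn2-209 and Clcn2-208 made up most of that sum. Clcn2-209 had 69.1 and 208 counts and Clcn2-208 had 62.2 and 166. Each keeps introns that Clcn2-201 removes. One intron of 127 bases, kept in Clcn2-208, and one of 160 bases, kept in Clcn2-209, are shown in capitals with 6 bases of each flanking exon in lower case. The windows are chr16:20710422-20710560 and chr16:20707911-20708082 on the minus strand (mm10), and the capitals mark bases that Clcn2-201 lacks once spliced. Whether reads there came from these RNAs or from unspliced RNA of the gene was not tested.
Clcn2-208 intron: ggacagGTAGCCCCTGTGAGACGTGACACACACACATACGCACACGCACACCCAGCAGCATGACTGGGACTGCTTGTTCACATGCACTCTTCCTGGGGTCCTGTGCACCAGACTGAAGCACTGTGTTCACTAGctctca
Clcn2-209 intron: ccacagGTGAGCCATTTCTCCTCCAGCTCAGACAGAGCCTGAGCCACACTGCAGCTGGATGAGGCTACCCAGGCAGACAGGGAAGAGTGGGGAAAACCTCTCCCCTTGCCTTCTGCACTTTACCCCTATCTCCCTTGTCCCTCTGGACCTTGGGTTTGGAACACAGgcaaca
Clcn2 overlaps Fam131a and Polr2h on the opposite strand over 85 and 82 bases, neither of which differed 2-fold in TPM.

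In the ClC family, Clcn2 held 16.9% of the TPM in replicate 1 and 22.1% in replicate 2, among 9 genes of which 6 reached 1 TPM in both animals. Clcn4 (25.5 and 27.0 TPM), Clcn3 (18.2 and 20.5 TPM) and Clcn7 (20.4 and 18.1 TPM), which encode exchangers of intracellular membranes, were at like levels. Clcn2 was below all 3 in replicate 1 and above Clcn3 and Clcn7 in replicate 2. Of the 9, 6 had the mean count of 100 that a call needs, and none of these was called 2-fold apart.

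**Figure D4:**
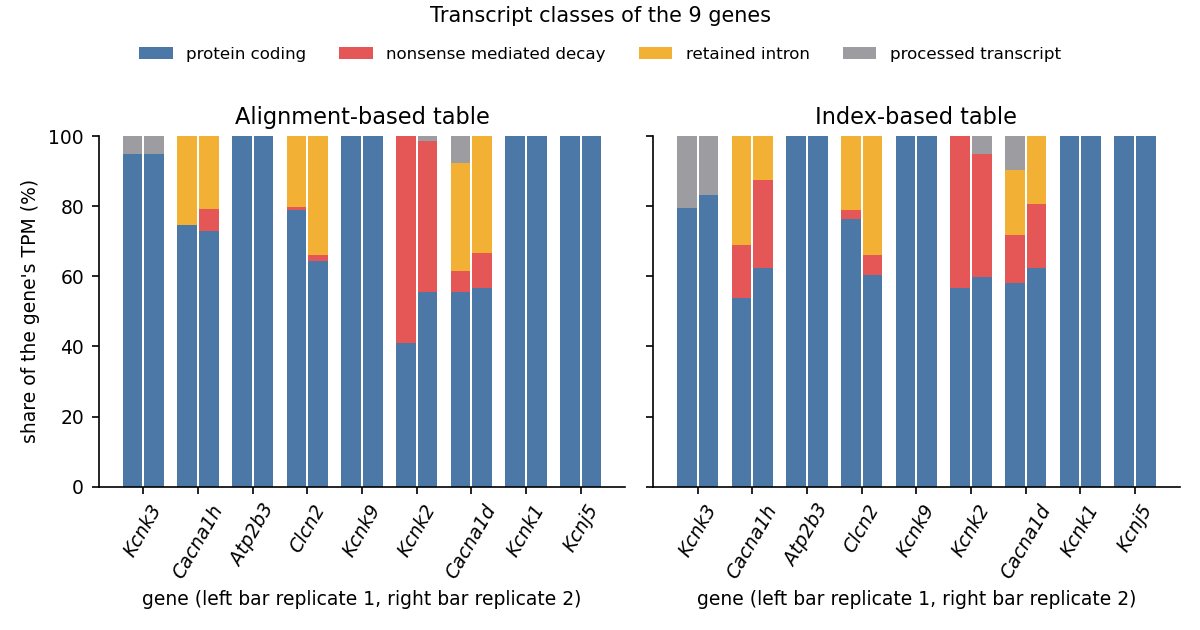
Share of each gene's TPM (vertical axis, percent) in 4 annotated transcript classes, for replicate 1 (left bars) and replicate 2 (right bars) in both transcript tables. Kcnk9, Atp2b3, Kcnk1 and Kcnj5 have protein-coding transcripts only, and the retained-intron share of Clcn2 is 20.1% and 33.9% in the alignment-based table.

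Taking transcripts of all members, 6 of the 8 genes with several transcripts had the same leading transcript in both animals and both tables, against 65.0% of 13823 genes. The exceptions were Kcnj5 and Cacna1h. For Kcnk3 the coding Kcnk3-201 led throughout, with 94.8% and 94.9% of the TPM. The short processed transcript Kcnk3-202, which encodes no protein, took the rest, 28.7 and 30.3 TPM. In the index-based table it took 109 and 91.5 TPM, so that Kcnk3-201 held 79.6% and 83.3% there. By counts Kcnk3-201 held 98.2% and 98.6% even in that table, because Kcnk3-202 has 507 bases and its reads weigh heavily per length. Kcnk3-202 had 1500 and 1072 estimated counts there, against 454 and 407 in the alignment-based table. The cause of this difference was not tested.

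None of the 9 genes was called different between the animals: the rule called 0 of the 7 members with enough counts, against 1.18% of 12645 genes. No p-value underlies this rule. The members' log2 ratios ran from -0.35 for Kcnj5 to 0.42 for Clcn2, with a median of 0.03. Over the 12645 genes the median was -0.02, and the central 95% lay between -0.65 and 0.62. All 9 members were inside that range. The lists of related genes had medians near it: 0.03 for the two-pore channels, -0.20 for the inward rectifiers, 0.12 for the alpha-1 subunits, -0.07 for the PMCA pumps and 0.06 for the ClC family.

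**Figure D5:**
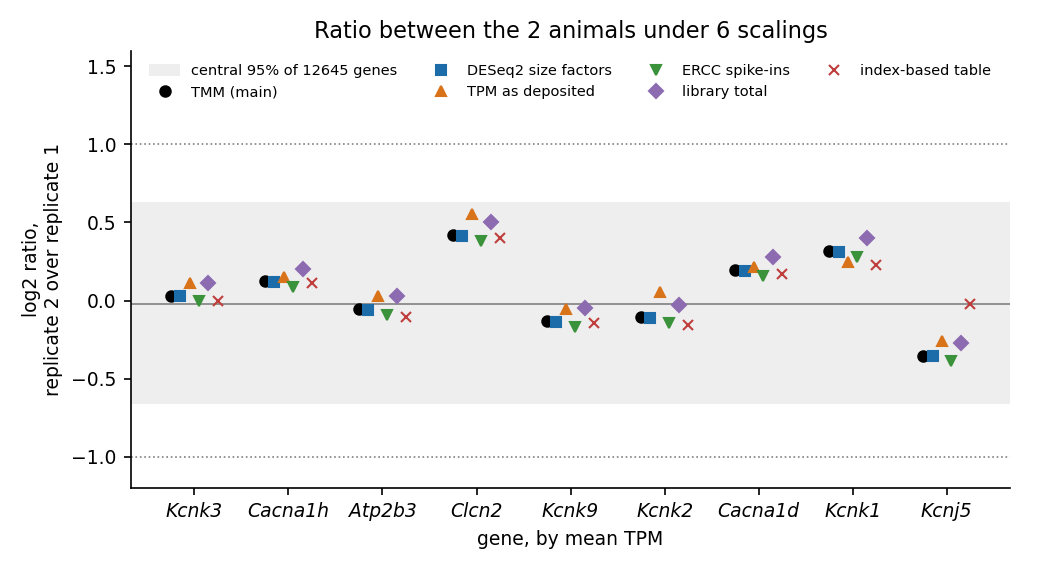
Log2 ratio of replicate 2 over replicate 1 (vertical axis) for the 9 genes under 6 scalings or tables. The grey band is the central 95% of 12645 genes (-0.65 to 0.62) and the dotted lines mark a 2-fold difference; every point lies inside the band, and Clcn2 is the highest gene.

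Among the genes that work with the members, those of angiotensin signalling and aldosterone synthesis were all expressed. All 28 of this list reached 1 TPM in both animals, against 54.5% of 22015 nuclear protein-coding genes. The list was chosen with earlier results of these data known, so this count is a description and no test. The median log2 ratio of the 28 genes was -0.04. In the gene table the highest was Star, which carries cholesterol into mitochondria, at 5984 ± 473 TPM. The calmodulin gene Calm2 followed at 181 ± 9.51 TPM and Cyp11b2 at 169 ± 6.94 TPM. Cyp11b2 is a close copy of Cyp11b1, so its level is uncertain. The index-based table placed Cyp11b2 at 341 and 392 TPM, above Calm2 at 146 and 158 TPM. The angiotensin receptor gene Agtr1a was at 97.52 and 87.54 TPM. Of the 28, 2 were called, both higher in replicate 2, against 1.18% of 12645 genes. These were Nr4a1 (14.8 and 135 TPM, log2 ratio 3.44) and Nr4a2 (2.73 and 9.62 TPM, log2 ratio 1.93). Both encode transcription factors induced rapidly by calcium and cAMP. Nr4a2 is also among the 7 glomerulosa markers. Kcnk3 was 3.35 and 3.41 times Cyp11b2 per length in the gene table, and 1.56 and 1.39 times in the index-based table.

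Large-conductance potassium channels of the BK type open with calcium and depolarisation. Of 4 BK channel genes 2 reached 1 TPM in both animals, Kcnma1 (26.0 ± 0.926 TPM), which encodes the pore, and Kcnmb2 (1.81 ± 0.679 TPM). Kcnmb4 was at 0.355 ± 0.0919 TPM. Of the 4, 2 had the mean count of 100 that a call needs, and neither was called.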

How the data were processed

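The authors measured total RNA in 2 libraries, each from 300 ng of RNA with ERCC spike-ins, per the labels. Each library has a gene and a transcript table derived from a transcriptome alignment, and a transcript table made by the authors straight from reads with a transcript index (the index-based table). Both used mm10 with GENCODE M21, per the notes deposited with the files. Not given in the sources used here are the programs, their versions, whether strand was used and how reads from CAST alleles were treated. Expected counts, deposited without normalization, are estimates that need not be whole. The authors scaled TPM over every feature, spike-ins included. The deposited FPKM, an alternative here, is relative to length and depth. The deposited percent of each gene held by a transcript was recomputed from TPM. The lower and upper bounds of the TPM signal, deposited by the authors, describe estimation within 1 library at a level the file does not give.

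Gene names, transcript classes and coordinates came from GENCODE M21, and all 55536 gene identifiers matched. Sequences came from its transcripts. Ratios are replicate 2 over replicate 1 of expected counts scaled by TMM (edgeR 4.0.16, R 4.3.3), with 0.5 added. A list median used genes with a mean count of 10 or more. DESeq2 1.42.0 gave an alternative scaling. With 1 group of 2 samples no test was run and no likeness of pattern between genes was computed. Other steps used Python 3.11.15, pandas 2.3.3, numpy 2.4.6 and matplotlib 3.10.9, and the ratio was tested on simulated data. Coding sequences were aligned globally (match 2, mismatch -1, gap -5 to open and -1 to extend), and 31-base stretches were searched in all transcripts.

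All 9 members are named, with up to 3 genes per list by mean TPM and any called 2-fold apart, except some items that are not reported here. Kcnk7, Kcnk15, Kcnk16, Kcnk18, Cacna1i, Cacna1g and Agtr1a were named after their values were seen. Members and lists were chosen with earlier results of these data known. The comparisons of retained introns, Kcnk2-203 and Atp2b3-203, the ratios between genes and the sequence comparisons were added after seeing the data.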

Additional observations from a re-analysis of the deposited data

How the results depend on the processing

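The number of members at 1 TPM or more in both animals was 7 and lay between 6 (minimum of 5 TPM) and 9 (TPM rescaled over nuclear protein-coding genes) under the alternatives, with 7 and 8 when 1 replicate was left out. The number at least 2-fold apart was 0 under each of the 7 alternatives run. The same leading transcript was found for 5 members with posterior mean TPM and for 6 or 7 with 1 replicate left out, against 6. The members' median log2 ratio of 0.03 was 0.11 with TPM as deposited, where the median over all genes was 0.07, and -0.002 with spike-in scaling and -0.005 in the index-based table. The signs of Kcnk3, Kcnk2 and Atp2b3 thus rest on the scaling, with ranges of -0.005 to 0.11, -0.16 to 0.06 and -0.10 to 0.03.

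Shares moved by more than the SD of the 2 animals as follows. With expected counts, not divided by length, Kcnk3 held 87.5% of its family, Atp2b3 45.5% and Clcn2 13.5%. In the index-based table Kcnk3 held 94.9%, Atp2b3 46.4%, Cacna1d 3.66% and Kcnj5 13.8%. Leaving out 1 of 2 replicates cannot move a mean by more than that SD, so it is no check of the shares. The Kcnj5 share is the only one that moved by over 1.5 times, and its cause was not tested. Kcnk2-203 averaged 39.1% of Kcnk2 in the index-based table, against 51.2%, and Atp2b3-203 averaged 81.0% of Atp2b3, against 89.5%. Of 64 further values of single ratios, 61 were counted as unmoved, where the tolerance on a log2 ratio was 0.105. They include other pseudocounts, which change little at these counts. They also include the retained-intron ratio of Clcn2, which went from 1.45 to 1.27 in the index-based table, more than that tolerance. Of 54 values of single levels, 34 moved by less than the SD of the 2 animals and 20 by more. The 34 include every value with 1 replicate left out, which cannot move by more. No paired analysis was possible because there is 1 group. Kcnk1 and Kcnj5, with fewer than 100 expected counts a library in the gene table, are limited by depth there. Kcnj5 is limited also by the gap between the tables, since the index-based one gave it 213 and 192 estimated counts.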
